A study of Mus musculus with 2 samples.

Results

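The cells described here were those with the lowest levels of proliferation transcripts among hematopoietic stem cells (HSC) in culture. They were chosen by measured values: the deposited natural log values of 9 genes of DNA synthesis and cell division (Mki67, Top2a, Cdk1, Rrm2, Pcna, Mcm5, Tyms, Birc5 and Hells) were averaged per cell, over cells with 3000 or more detected genes, and the lowest 10% of both libraries pooled were taken. This gave 1784 of 17838 eligible cells, out of 18560 cells in all, and the other 16054 eligible cells were the comparison. The set is a range of a score and not a cell type: the cut lay at a score of 0.987, the nearest cells inside and outside both rounded to that value, and 459 cells lay within 0.05 of it. The 722 cells with fewer genes were left out.

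The study compared HSC exposed to deferoxamine (DFO), a chelator that binds iron, with HSC exposed to vehicle. The cells were sorted from the bone marrow of 8 C57/B6 mice, 6 to 8 weeks old, as lineage-negative, Sca-1+, c-Kit+, CD150+ and CD48- cells. Both cultures, vehicle and 10 µM DFO, ran for 48 h in medium containing thrombopoietin at 50 ng/ml and stem cell factor at 100 ng/ml, cytokines that drive division. One droplet library of transcript 3′ ends was made per culture, with 20000 cells loaded, so each group has 1 library of pooled mice. The differences could therefore not be set against any spread between cultures, and no test was run. The vehicle library holds 260938938 molecules and the DFO library 284326017.

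Adult HSC are mostly quiescent in the marrow, and cytokines in culture bring them into the cycle. Entry into S phase is driven by E2F factors, which switch on replication genes, while genes of mitosis are switched on later by the MuvB complex with B-MYB and FOXM1. Stem cells out of the cycle are known for low ribosome production and for transcripts such as those of Hlf and Procr. Iron is needed by ribonucleotide reductase, which makes the building blocks of DNA, and by several DNA polymerases and helicases.

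Promoter windows are shown first because the genes furthest below the other cells are mitosis genes, and MuvB binds a short element called CHR (TTTGAA), often downstream of a CCAAT box. The windows run from 250 bases before to 50 bases after the annotated start (RefSeq, build GRCm38.p6), 5′ to 3′ on the gene's strand. Capitals mark TTTGAA and CCAAT on either strand. Prc1 encodes a spindle midzone protein, Kif11 a spindle motor and Plk1 a mitotic kinase, and each window holds both. Nusap1, a spindle protein about as far below the other cells as Prc1, holds none of these letters. Tcp11l2 had the largest excess in the set, and its window holds none either, while those of Ypel3 and Mxd4, also higher, hold CCAAT without TTTGAA. Positions are chr7:80294201-80294500 for Prc1, chr7:122159185-122159484 for Plk1, chr19:37376132-37376431 for Kif11, chr2:119618048-119618347 for Nusap1 and chr10:84576697-84576996 for Tcp11l2, all on the plus strand.
Prc1: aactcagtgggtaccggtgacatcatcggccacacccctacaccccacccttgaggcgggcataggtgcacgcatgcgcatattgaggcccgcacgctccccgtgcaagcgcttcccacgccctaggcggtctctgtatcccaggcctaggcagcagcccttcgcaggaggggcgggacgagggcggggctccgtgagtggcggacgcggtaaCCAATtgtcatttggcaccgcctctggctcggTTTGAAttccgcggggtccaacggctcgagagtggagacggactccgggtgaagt
Plk1: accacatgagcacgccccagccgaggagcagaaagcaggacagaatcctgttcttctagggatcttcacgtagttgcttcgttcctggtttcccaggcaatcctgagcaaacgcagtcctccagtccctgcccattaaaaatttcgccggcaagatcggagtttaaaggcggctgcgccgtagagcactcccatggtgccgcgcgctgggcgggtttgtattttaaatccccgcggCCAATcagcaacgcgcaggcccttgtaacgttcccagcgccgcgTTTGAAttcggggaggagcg
Kif11: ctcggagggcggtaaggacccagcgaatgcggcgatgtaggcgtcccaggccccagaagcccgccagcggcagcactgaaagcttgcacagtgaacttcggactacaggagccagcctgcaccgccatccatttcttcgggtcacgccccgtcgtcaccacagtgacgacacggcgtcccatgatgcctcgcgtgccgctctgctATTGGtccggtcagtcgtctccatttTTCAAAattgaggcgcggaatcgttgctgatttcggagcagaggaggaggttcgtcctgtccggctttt
Nusap1: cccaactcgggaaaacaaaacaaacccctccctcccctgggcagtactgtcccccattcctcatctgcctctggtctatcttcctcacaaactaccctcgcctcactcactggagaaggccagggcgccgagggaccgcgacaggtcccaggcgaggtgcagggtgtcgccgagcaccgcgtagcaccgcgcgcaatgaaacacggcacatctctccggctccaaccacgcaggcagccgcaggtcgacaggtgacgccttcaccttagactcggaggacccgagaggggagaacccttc
Tcp11l2: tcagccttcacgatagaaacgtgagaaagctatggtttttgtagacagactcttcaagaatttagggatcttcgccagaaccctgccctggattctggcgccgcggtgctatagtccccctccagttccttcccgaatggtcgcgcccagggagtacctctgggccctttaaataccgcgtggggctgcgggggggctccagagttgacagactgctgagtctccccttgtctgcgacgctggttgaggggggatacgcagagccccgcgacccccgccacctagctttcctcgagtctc

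Among the 476 genes lower in the set by the rule given below, 371 matched a symbol in the promoter table, with 433 windows. TTTGAA was present on either strand in 27.7% of these windows, against 12.1% of the 7566 windows of all genes compared and 17.9% of the 32851 windows of the whole table. It was present in 22.8% of the 372 windows of lower genes outside the cell cycle lists, and in 10.6% of the 360 windows of genes higher in the set. Those lists hold only 70 of the 476 lower genes, so the other lower genes can include genes of the cycle. The cells were chosen by transcripts of the cycle, which limits what an excess of these letters can show. CCAAT was present in 52.0% of the windows of lower genes and 37.7% of those of all genes compared. An E2F site, spelled TTTCCCGC, TTTCGCGC, TTTGCCGC or TTTGGCGC, was present in 8.31% and 4.44%, respectively. The forkhead letters TGTTTAC were present in 4.72% of the windows of higher genes, 2.54% of those of lower genes and 2.74% of all compared. The E-box CACGTG, which MYC can bind, was present in 6.11%, 12.5% and 10.9%. These are matches of letters, and binding was not measured.

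The set held 1012 of 8379 eligible vehicle cells (12.1%, exact 95% Clopper-Pearson interval 11.4% to 12.8%) and 772 of 9459 DFO cells (8.16%, 7.62% to 8.73%). Its share was thus lower in the DFO library, at 0.676 of the vehicle share. These intervals cover counting error only. The ratio ranged from 0.493 to 0.754 over the alternatives tried and was below 1 in each. It was 0.664 in female cells and 0.648 in male cells, as told from Xist and Y-linked transcripts. With the cells split into deciles of the score, the decile above the set held 915 vehicle and 869 DFO cells, and the highest held 723 and 1061.

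**Figure D1:**
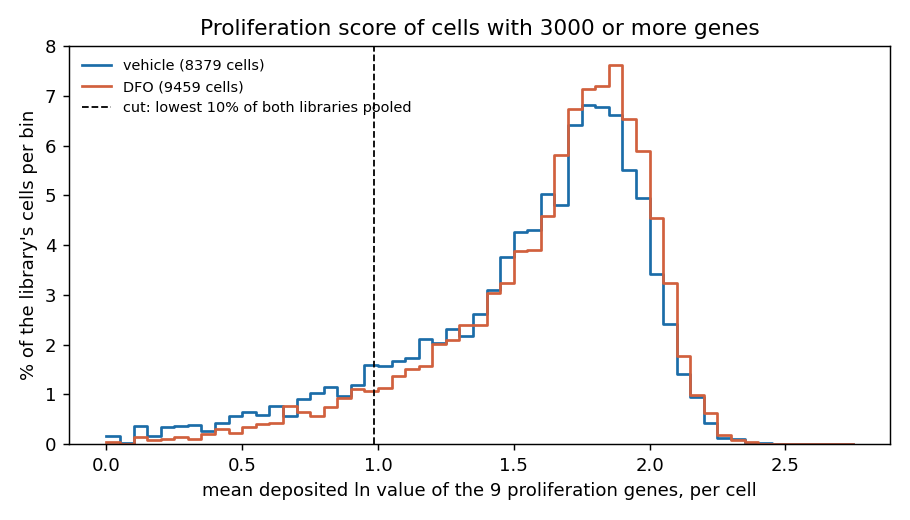
Distribution of the proliferation score, the mean deposited natural log value of 9 genes per cell, as % of each library's cells per bin of 0.05. The dashed line is the cut, left of which lie 1012 vehicle and 772 DFO cells; the DFO curve lies to the right of the vehicle curve, and no gap separates the set from the rest.

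Cells of the set held fewer molecules than the other cells, and this touches every comparison between them. The median was 17882 molecules per cell in vehicle and 16900 in DFO, against 29814 and 28475 in the other cells. Detected genes numbered 4098.5 and 4024.5 at the median, against 5246 and 5175. After thinning each cell to 10000 molecules, which left out 14 and 9 cells of the set and 18 and 34 other cells, the medians were 2998.5 and 3028 genes in the set against 3062 and 3082. The mitochondrial share of molecules was 4.09% and 4.74% in the set and 3.83% and 4.34% outside it. Cells with transcripts of both sexes, a sign of droplets with more than 1 cell, were 0.494% and 0.777% of the set against 2.80% and 3.78% of the other cells. Whether the lower molecule number is a property of these cells or of their capture cannot be told apart here. For the groups and many of the genes below, values with the other cells weighted to the set's molecule numbers ("weighted") are given as well. A second alternative, added after the data were seen, chose the lowest 10% within each of 20 bins of molecule number ("binned").

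Of the 7446 genes outside the rule whose mean reached 10 CPM (molecules scaled to the same total), 357 (4.79%) were higher and 476 (6.39%) lower in the set. A gene was counted where log2((CPM + 1)/(CPM + 1)), set against other cells, was at least 0.5 in size and of the same sign in each library. The minimum applied to the mean over the set and the other cells, so a gene could enter only through the side where it was high. With other cells weighted to the set's molecule numbers these counts were 84 and 257. With the set drawn within bins of molecule number they were 21 and 109. The shares of 4.79% and 6.39% belong to the main comparison only. Weighted and binned counts of listed genes below are to be read beside these smaller totals instead. No gene passed the fold in opposite directions in the vehicle and DFO libraries. The median over all compared genes was -0.03 in both libraries.

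The rule genes themselves, which chose the cells, summed to 533 CPM in set cells with vehicle and 585 CPM in those with DFO, against 2066 and 2104 CPM outside. Top2a, the topoisomerase that untangles sister DNA, was at 38.9 and 35.5 CPM in the set against 451 and 435 CPM. Mcm5, a subunit of the replicative helicase, was at 102 and 106 CPM against 137 and 142 CPM. A score of 0, with no molecule of any of the 9 genes, was found in 14 vehicle and 5 DFO cells.

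Mitosis genes were the group furthest below the other cells. The score holds Mki67, Top2a, Cdk1 and Birc5, counted here as its mitosis genes, so the choice of cells helped to set this rank. With only the S phase genes in the score, Prc1 and Kif11 turned higher, at 0.28 and 0.11 by the smaller of both libraries. Of 50 listed mitosis genes outside the rule, 46 were past the fold and lower, none was past it and higher, and the median log2 difference was -1.84 in vehicle and -1.89 in DFO. The share of all compared genes lower past the fold was 6.39%. Weighted, 46 were lower with medians of -1.37 and -1.35, and binned, 30 with medians of -0.64 and -0.65. Prc1 was at 11.2 CPM in vehicle cells of the set (exact 95% Poisson interval 9.71 to 12.8) and 9.86 CPM in DFO cells (8.24 to 11.7), against 163 and 166 CPM in the other cells. Its log2 differences were -3.75 and -3.95, and -2.71 and -2.81 weighted. Kif11 stood at 7.76 and 6.55 CPM against 83.1 and 80.1 CPM. Aurkb, the kinase of the chromosomal passenger complex, stood at 10.7 and 9.41 CPM against 120 and 125 CPM. Both libraries of the set lay far below both libraries of the other cells for these genes, which were named for being lower in each library.

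Nusap1, a microtubule-binding protein of the spindle, differed by -3.67 and -3.70 on the log2 scale. Spc25 of the kinetochore differed by -3.14 and -3.24, and Sgo2a, a protector of cohesion at centromeres, by -3.09 and -3.02. Fbxo5, an inhibitor of the anaphase-promoting complex, differed by -2.90 and -2.84, and Plk1 by -2.82 in each library. Esco2, which acetylates cohesin in S phase, differed by -3.21 and -3.59. In the set Spc25 was at 5.54 and 4.82 CPM, Sgo2a at 2.71 and 2.78 CPM and Esco2 at 4.56 and 3.46 CPM. Spc25, Sgo2a and Esco2 thus reached the minimum of 10 CPM only through the other cells, and their set values rest on few molecules. Kif11, at 7.76 and 6.55 CPM in the set, and Nusap1, at 8.31 and 7.53 CPM, also entered only through the other cells. Of the 50 listed mitosis genes, 40 reached a mean of 10 CPM in the set itself. At the other end of the list, Pttg1, the securin, differed by -0.03 and 0.08 and Ccnb2, a B-type cyclin, by -0.04 and 0.14, so a few mitosis genes were at the level of the other cells.

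S phase genes outside the rule differed less. The rule holds genes of both kinds, so the gap between S phase and mitosis genes depends on the score. Of 49 that entered, 24 were lower past the fold and none higher, with medians of -0.52 and -0.45, where 6.39% of all compared genes were lower. Weighted, 20 were lower with medians of -0.53 and -0.41, and binned, 3 with medians of -0.23 and -0.18. Mcm10, which starts replication forks, differed by -1.79 and -1.72. Rrm1, the large subunit of ribonucleotide reductase, stood at 88.2 and 96.0 CPM against 170 and 172 CPM. Mcm6, another subunit of the helicase, differed by 0.13 and 0.12, and Ung, a uracil glycosylase, by 0.47 and 0.56. The histone genes Hist1h1b and Hist1h2ae differed by -3.68 and -3.79, and by -2.84 and -2.89. Hist1h2ae, at 9.07 and 8.96 CPM in the set, reached the minimum of 10 CPM only through the other cells. Such replication histones mostly lack a poly(A) tail and have near-identical copies, so their levels in a 3′ library are uncertain.

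Genes acting in G1 were mixed. Of 7 genes on a list of D-type cyclins, their kinases, Cdk2 and the phosphatase Cdc25a, none passed the fold, while both E-type cyclins, which are not on that list, were lower past it. The rule selected on S phase and mitosis genes, so the gap between these and the G1 genes was set by the choice of cells. Ccnd2, a D-type cyclin, stood at 246 and 254 CPM in the set and 266 and 265 CPM outside it. Cdk6, its kinase partner, stood at 277 and 236 CPM against 291 and 254 CPM. Cyclin E1 (Ccne1) differed by -0.78 and -0.71, weighted by -0.65 and -0.62, and binned by -0.15 and -0.09. Ccne2 differed by -0.58 and -0.58, and this turned to 0.11 and 0.12 in the set drawn within bins of molecule number.

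Among 10 inhibitors and pocket proteins that entered, 1 was higher and 2 were lower past the fold. The shares of all compared genes were 4.79% higher and 6.39% lower. Cdkn1a, encoding p21, stood at 84.3 and 73.2 CPM against 45.9 and 49.5 CPM, log2 differences of 0.86 and 0.56. Weighted, Cdkn1a was at 0.63 and 0.48, and binned at 0.81 and 0.56. Cdkn1b, encoding p27, differed by 0.70 and 0.44, but by 0.34 and 0.16 weighted and 0.06 and 0.01 binned. Cdkn2c and Cdkn2d, 2 inhibitors of CDK4 and CDK6, were lower, by -1.06 and -1.10 and by -0.68 and -0.95. Cdkn2c, at 8.42 and 8.35 CPM in the set, reached the minimum of 10 CPM only through the other cells. Cdkn1c, encoding p57, was at 4.94 and 5.34 CPM in the set and so did not reach the minimum level.

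**Figure D2:**
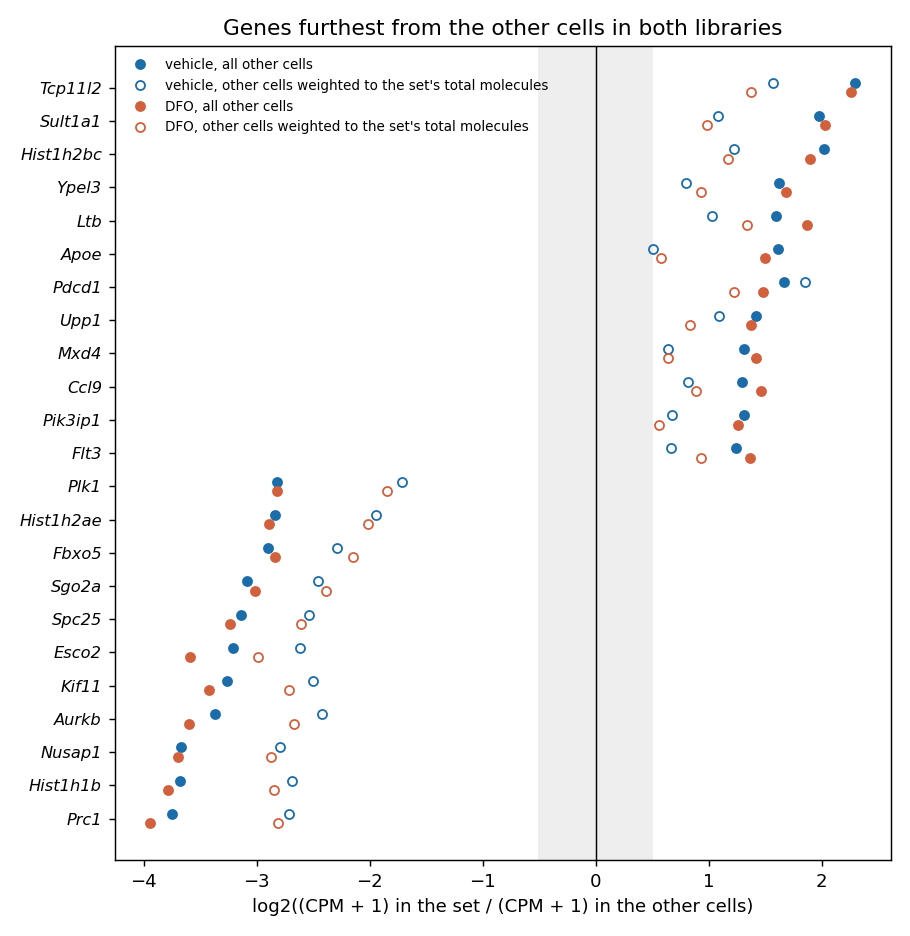
Log2 difference of the set from the other cells, on the log2(CPM + 1) scale, for genes among the 12 highest and the 12 lowest by the smaller of both libraries. Filled circles compare with all other cells and open circles with other cells weighted to the set's molecule numbers; all plotted genes stay outside the grey band of 0.5, and most open circles lie nearer to 0.

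Higher in the set was a mixed group of genes, led by Tcp11l2, which reached the minimum of 10 CPM only through the set. The gene (chr10:84576947-84614355, RefSeq, GRCm38.p6) stood at 30.5 CPM in vehicle set cells (28.0 to 33.1) and 24.6 CPM in DFO set cells, against 5.42 and 4.37 CPM, log2 differences of 2.30 and 2.25, or 1.57 and 1.37 weighted. Ypel3, linked to growth arrest, stood at 134 and 132 CPM against 42.7 and 40.5 CPM. Mxd4, a partner of MAX that opposes MYC, differed by 1.32 and 1.42. Pik3ip1, an inhibitor of PI3 kinase, stood at 79.9 and 75.6 CPM against 31.5 and 31.1 CPM. That the set was above the other cells in both libraries was a condition for naming these genes. Weighted, Ypel3 was at 0.80 and 0.93, Mxd4 at 0.64 in each library, and Pik3ip1 at 0.67 and 0.56.

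Ltb, a cytokine of the TNF family, differed by 1.59 and 1.87, Ccl9, a chemokine, by 1.30 and 1.47, and Pdcd1, the receptor PD-1, by 1.67 and 1.48. Flt3, a receptor that marks multipotent progenitors, differed by 1.24 and 1.36. Sult1a1, a sulfotransferase, differed by 1.98 and 2.03, and Upp1, uridine phosphorylase, by 1.41 and 1.37. In the other cells Sult1a1 was at 5.69 and 5.73 CPM, Pdcd1 at 5.35 and 5.50 CPM and Ltb at 6.77 and 6.00 CPM. Flt3 was at 7.76 and 8.05 CPM there. Sult1a1, Pdcd1, Ltb and Flt3 thus reached the minimum of 10 CPM only through the set. Apoe, a lipid carrier, differed by 1.61 and 1.49, but by 0.51 and 0.58 weighted. Hist1h2bc, a histone gene with near-identical copies, differed by 2.02 and 1.90. In the set drawn within bins of molecule number, all 12 of these highest genes kept their sign and 7 kept the fold.

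Markers of HSC were higher on balance. Of 23 that entered, 7 were higher and 1 lower past the fold, where 4.79% of all compared genes were higher, and the median log2 difference was 0.30 in vehicle and 0.35 in DFO. Weighted, 4 were higher with medians of 0.26 and 0.24, and binned, 1 with medians of 0.17 and 0.14. Ly6a (chr15:74994877-74998031), encoding the sort marker Sca-1, stood at 185 and 247 CPM in the set against 76.3 and 105 CPM, differences of 1.26 and 1.23. Hlf, a transcription factor of stem cells, stood at 123 and 156 CPM against 57.8 and 66.6 CPM. Procr, encoding the receptor EPCR, differed by 1.15 and 1.30 but had a mean under 10 CPM and is not in the count. Weighted, Ly6a was at 1.02 and 0.87, Hlf at 0.58 and 0.71 and Procr at 1.00 and 0.90.

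Of 5 multipotent progenitor markers, 4 were higher past the fold, among them Cd27 (0.79 and 0.75) and Cd34 (0.53 and 0.54). The share of all compared genes higher past the fold was 4.79%. The list's medians of 0.65 and 0.70 were 0.19 and 0.22 when weighted and 0.05 and 0.14 when binned, with 1 and 0 of the 5 past the fold. Cd27 was at 0.42 and 0.29 weighted and 0.06 and 0.15 binned, and Cd34 at 0.19 and 0.22 weighted. Cd48, whose protein the sort selected against, was lower in the set, by -0.49 and -0.99. The HSC list summed to 4327 and 4265 CPM in the set and 3645 and 3685 CPM outside it. After thinning, 20.3% of vehicle and 18.6% of DFO set cells were among the roughly 10% of cells with most molecules of these markers, against 9.21% and 10.2% of the other cells. Most cells of the set were thus not in the top group of HSC markers. The excess was not particular to these markers. Shares of set cells in the top group were 19.4% and 16.0% for erythroid markers, against 9.84% and 8.53% of other cells. For neutrophil and monocyte markers they were 25.2% and 19.9% against 11.3% and 8.96%. For multipotent progenitor markers they were 22.7% and 19.5% against 15.4% and 13.5%. Megakaryocyte markers went the other way, at 11.8% and 3.80% against 15.9% and 5.96%.

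Ribosome production genes were lower. Of 38 listed MYC targets and ribosome biogenesis genes, 37 were lower in both libraries, with medians of -0.47 and -0.46, and 14 passed the fold, where 6.39% of all compared genes were lower. Nolc1, a nucleolar chaperone, stood at 116 and 138 CPM against 223 and 242 CPM. Myc itself, on the same list, was higher, at 114 and 140 CPM against 90.4 and 106 CPM, differences of 0.32 and 0.39 that did not reach the fold. The list's medians were -0.20 weighted and -0.10 binned in both libraries, with no gene past the fold in either. Transcripts of ribosomal proteins, in contrast, were slightly higher for 47 of 49 genes, with medians of 0.15 and 0.17, and none passed the fold. Their medians were 0.07 and 0.10 weighted, and 0.04 and 0.05 binned.

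The 13 ATF4 targets that entered, genes of the amino acid response, held 6 lower past the fold, where 6.39% of all compared genes were lower. Their medians were -0.36 and -0.47, weighted -0.20 and -0.30 with 2 past the fold, and binned -0.10 in each library with none past it. Mthfd2, a mitochondrial folate enzyme, was at -1.35 and -1.32, and binned at -0.24 and -0.28. Of 9 iron-dependent nucleotide and DNA enzymes, 4 were lower, 4 when weighted and 1 when binned. The helicase Brip1 led them at -1.56 and -1.67. Tfrc, the receptor for iron-loaded transferrin, stood at 34.5 and 36.9 CPM against 59.5 and 69.1 CPM. Hmox1, which releases iron from heme, was higher, at 19.9 and 12.6 CPM against 6.16 and 5.58 CPM. It reached the minimum of 10 CPM only through the set. Tfrc differed by 0.03 and -0.02 in the set drawn within bins of molecule number, and Hmox1 by 0.96 and 0.63. Fth1, the ferritin heavy chain, differed by 0.08 and 0.07.

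Several smaller groups were higher. Of 21 genes linked to quiescence or growth arrest, 6 were higher and 1 lower past the fold, with Txnip, a thioredoxin-binding protein, at 1.21 and 1.06, or 0.42 and 0.44 weighted. Of 17 hypoxia genes 4 were higher, of 10 p53 targets 4, of 25 autophagy and lysosome genes 5 and of 13 MHC class I genes 3, with none lower past the fold in these lists. The share over all compared genes was 4.79%. Weighted, 2 quiescence, 2 hypoxia and 2 p53 genes were past the fold, and none of the autophagy and lysosome or MHC class I genes. Over all compared genes, 84 were higher past the fold when weighted. Ddit4, an inhibitor of mTORC1, differed by 0.98 and 0.80 (weighted 0.54 and 0.43), and Bbc3, encoding PUMA, by 0.97 and 0.93 (0.65 and 0.44). H2-T23, an MHC class I gene, differed by 0.81 and 0.68, but by 0.32 and 0.27 weighted and 0.01 and -0.02 binned. The MHC class I medians of 0.40 and 0.36 were 0.04 and -0.02 when binned, and those of the autophagy and lysosome genes, 0.33 in each library, were 0.20 and 0.21 weighted and 0.06 binned.

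Markers of other blood cell lines were checked beside these. Megakaryocyte markers summed to 1962 and 1187 CPM in the set against 2652 and 1472 CPM outside it, and 2 of 10 were lower past the fold. The share of all compared genes lower past the fold was 6.39%. Pf4, a platelet chemokine, was at 933 and 390 CPM against 1492 and 604 CPM. It turned to log2 differences of 0.72 and 1.36 in the set drawn within bins of molecule number. Neutrophil and monocyte markers summed to 411 and 458 CPM against 265 and 243 CPM. One DFO cell, described below, held 1250 of these molecules, and without it the DFO sum was 365 CPM, below vehicle. Lyz2, a lysozyme gene on this list, differed by 0.84 and 0.73, and by 0.47 and 0.29 weighted. Erythroid markers summed to 1398 and 1255 CPM against 941 and 910 CPM, mostly from Hbb-bt, a globin gene, at 810 and 737 CPM against 499 and 479 CPM. Some of these markers were spread over most cells of the set. Pf4 was found in 907 of 1012 vehicle and 591 of 772 DFO set cells. Prtn3, on the neutrophil and monocyte list, was found in 832 and 636, and Lyz2 in 786 and 591. Elane, on the same list, was found in 3 and 6. The part of free RNA in these sums was not tested.

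**Figure D3:**
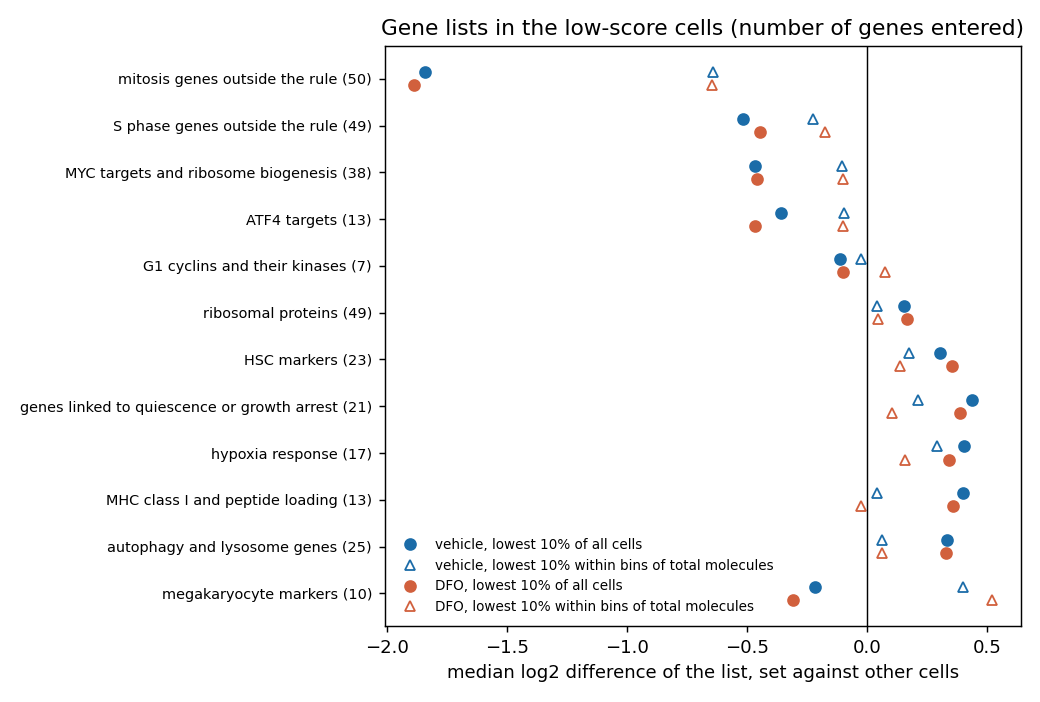
Median log2 difference of 12 gene lists, set against other cells, with the number of genes that entered. Filled circles are the lowest 10% of all cells and triangles the lowest 10% within bins of molecule number; mitosis genes lie lowest under both, and megakaryocyte markers change sign.

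Along the whole score the groups followed different courses. The set is the lowest decile of the score. All 357 higher genes were above the next decile in both libraries, 63 of them past the fold, and 467 of the 476 lower genes were below it, 162 past the fold. In vehicle, Tcp11l2 was at 30.5 CPM in the lowest decile and 10.5 CPM in the next, and Ly6a at 185 and 107 CPM. In DFO, Ly6a was at 247 and 149 CPM. Pf4 was highest in the fourth decile in each library, at 2310 CPM with vehicle and 943 CPM with DFO. Median molecules per cell in vehicle were 17882 in the lowest decile and 21838 in the next.

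**Figure D4:**
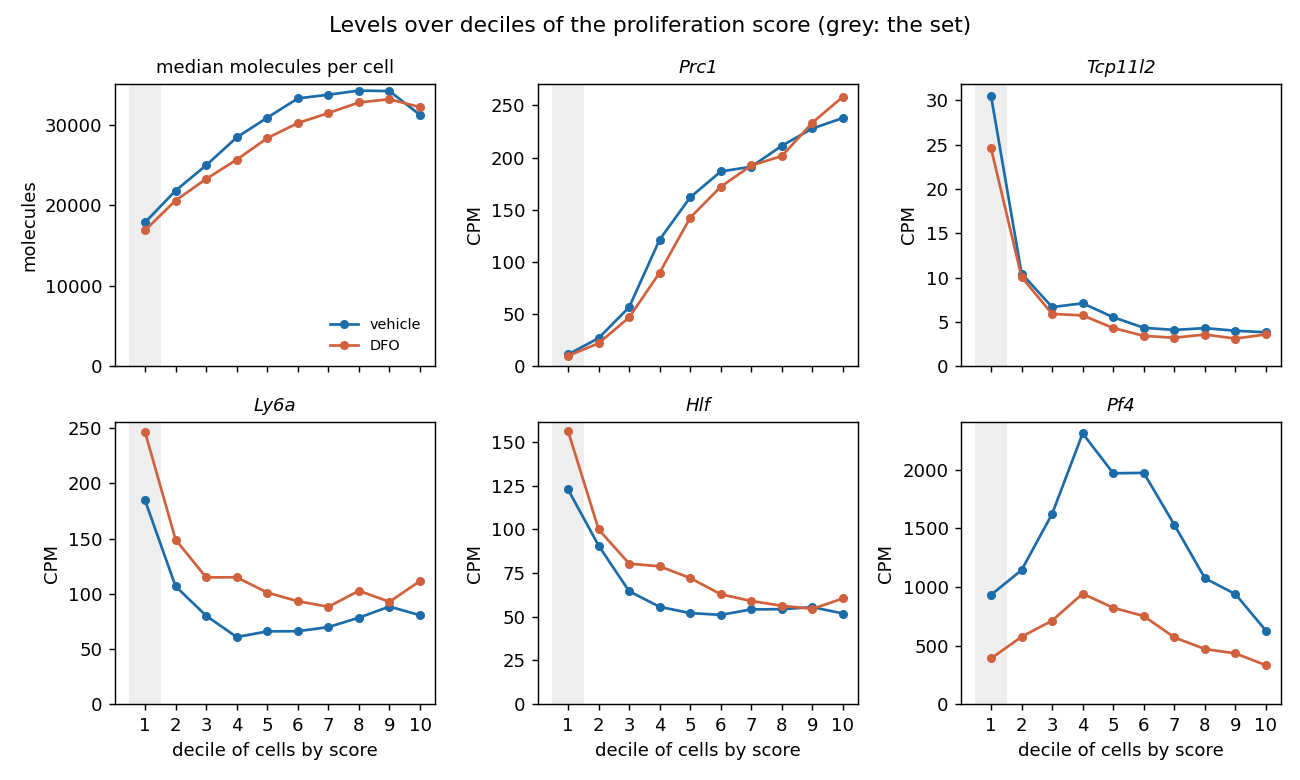
Median molecules per cell and levels in CPM of 5 genes over deciles of cells by score, with the set in grey and 1 line per library. Tcp11l2, Ly6a and Hlf are highest in the set, Prc1 rises with the score that chose the cells, and Pf4 peaks in the fourth decile.

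Inside the set, DFO was compared with vehicle over the 7460 genes that reached a mean of 10 CPM in its 2 libraries. Of these, 15 (0.201%) were higher and 46 (0.617%) lower by 0.5 or more on the log2 scale. Of the same 7460 genes, 1 was higher and 28 were lower by that much in the other cells. The set rests on fewer molecules, 18417433 in vehicle and 13287115 in DFO, and its log2 differences spread more widely, with a standard deviation over genes of 0.171 against 0.116. The set and the other cells come from the same 2 libraries.

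Markers of the megakaryocyte and erythroid lines were lower with DFO. All 10 megakaryocyte markers that entered were lower, 6 past the fold, with a median of -0.69 in the set and -0.56 in the other cells, against a median of 0.02 over all genes. Over all 7460 genes, 55.5% were higher, and 0.617% were lower past the fold. Of 5 erythroid markers all were lower, 3 past the fold, with a median of -0.51 in the set and -0.29 outside. Pf4 (chr5:90772435-90773383) was at 933 CPM with vehicle (919 to 947) and 390 CPM with DFO (380 to 401), a difference of -1.25, and of -1.30 outside the set. Treml1, a receptor of platelet granules, was at 20.4 and 5.87 CPM (-1.64, and -1.47 outside). Gata1, a transcription factor of both lines, was at 25.1 and 12.7 CPM (-0.93 and -0.64), and Aqp1, a water channel of red cells, at 16.4 and 6.02 CPM (-1.31 and -0.42). Itga2b, encoding CD41, was at 105 and 64.4 CPM (-0.70 and -0.57). With DFO cells weighted to the vehicle cells over 5 bins of megakaryocyte markers, 5 genes were higher and 14 lower. The bins rest on markers that were themselves lower, so smaller differences in those markers follow from the weighting. The cause of the lower counts in other genes was not tested.

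Csrp3, a LIM protein known from muscle, had the lowest value, at 16.3 and 4.37 CPM (-1.69 and -1.08). Its molecules were unevenly spread, with 6.31% of the vehicle and 13.8% of the DFO molecules in 1 cell of each library. Alox5, the lipoxygenase that starts leukotriene synthesis, was at 22.3 and 9.71 CPM (-1.12 and -0.85), and Cd180, a Toll-like receptor homologue, at 21.6 and 9.18 CPM (-1.15 and -0.56). Col18a1, a collagen gene, differed by -1.06 and -0.72, and Rapsn by -0.80 and -0.55. Pdcd4, an inhibitor of translation, was at 219 and 121 CPM (-0.85 and -0.75). Btg2, an antiproliferative gene, differed by -0.85 and -0.61, and Aldoc, a glycolytic aldolase, by -0.79 and -0.55. Glycolysis genes were lower in 15 of 18 cases, with a median of -0.25 in the set and -0.13 outside, and 1, Aldoc, passed the fold. Over all 7460 genes, 55.5% were higher, and 0.617% were lower past the fold.

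The largest values on the higher side came from a single cell. Elane, neutrophil elastase, was at 0.163 CPM with vehicle and 29.1 CPM with DFO, but 1 DFO cell held 98.2% of its 386 DFO molecules. The same cell held 83.8% of the Mpo and 83.4% of the Ctsg molecules, both genes of neutrophil granules, and 35.1% of those of Ms4a3. Without it Elane was at 0.528 CPM, Mpo at 2.94 CPM against 4.45 CPM in vehicle, and Ctsg at 3.17 CPM against 8.52 CPM. It held 22470 molecules, did not carry transcripts of both sexes, and scored 0.979, just inside the cut. Without this cell 11 genes were higher and 47 lower.

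The remaining higher genes were smaller in difference. Acot1, an acyl-CoA thioesterase, was at 17.4 CPM with vehicle and 28.4 CPM with DFO (0.68, and 0.13 outside the set). Rpa3, a subunit of the protein that coats single-stranded DNA, was at 40.2 and 61.6 CPM (0.60 and 0.46). mt-Nd3, a mitochondrially encoded subunit of complex I, was at 590 and 884 CPM (0.58 and 0.53), and 12 of 13 such genes were higher with a median of 0.15. Atn1 differed by 0.69 and 0.35, Gm6277 by 0.59 and 0.12, Emcn by 0.58 and 0.22, Pou2f2 by 0.54 and 0.07, Shisa8 by 0.53 and 0.42 and Cacna1a by 0.53 and 0.33. These genes lay between 8.25 and 25.6 CPM.

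Lists of S phase genes, mitosis genes and HSC markers had medians near 0 inside the set, with few genes past the fold. Inhibitors and pocket proteins were lower with DFO in 7 of 9 cases, with a median of -0.20 (-0.05 outside the set). Of these, 1 was past the fold, where 0.617% of all genes were lower. G1 cyclins and their kinases were higher in 5 of 7 cases, none past the fold, with a median of 0.14 (0.08 outside). S phase genes outside the rule were higher with DFO in 41 of 49 cases, 1 past the fold, with a median of 0.10 (0.06 outside the set). Over all 7460 genes, 55.5% were higher, 0.201% past the fold. Mitosis genes that entered were higher in 21 and lower in 19 of 40 cases, with a median of 0.01, and 1, Ckap2l, was lower past the fold at -0.71 (-0.54 outside). MYC targets and ribosome biogenesis genes were higher in 34 of 37 cases, none past the fold, with a median of 0.11 in the set and outside it. HSC markers were higher in 11 and lower in 12 of 23 cases, with Ly6a at 0.42 and Hlf at 0.34. Of these 23, 2 were lower past the fold, where 0.617% of all genes were, among them Slamf1, encoding the sort marker CD150, at -0.70 (-0.25 outside). Cdkn1b was at 50.9 CPM with vehicle and 40.7 CPM with DFO (-0.31), and Hmox1 at 19.9 and 12.6 CPM (-0.61). Tfrc differed by 0.09.

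Some genes differed with DFO inside the set and not, or less, outside it. Cd48 was at 75.0 and 55.6 CPM in the set, a difference of -0.42, and at 106 and 111 CPM outside, a difference of 0.07. Fgf3 differed by -0.65 inside and -0.22 outside, Furin, a protease, by -0.49 and -0.11, and Gata2, a stem cell transcription factor, by -0.45 and -0.09. Nagpa differed by -0.31 inside and 0.08 outside. In the other direction, Tpm4, a tropomyosin, differed by -0.16 inside and -0.68 outside, Tbxa2r by 0.17 and -0.25, and Bmp2k by -0.12 and -0.48. Asns, asparagine synthetase, differed by 0.48 and 0.16, and Atl3 by 0.41 and 0.10. These genes were named for that gap, and it was not tested.

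**Figure D5:**
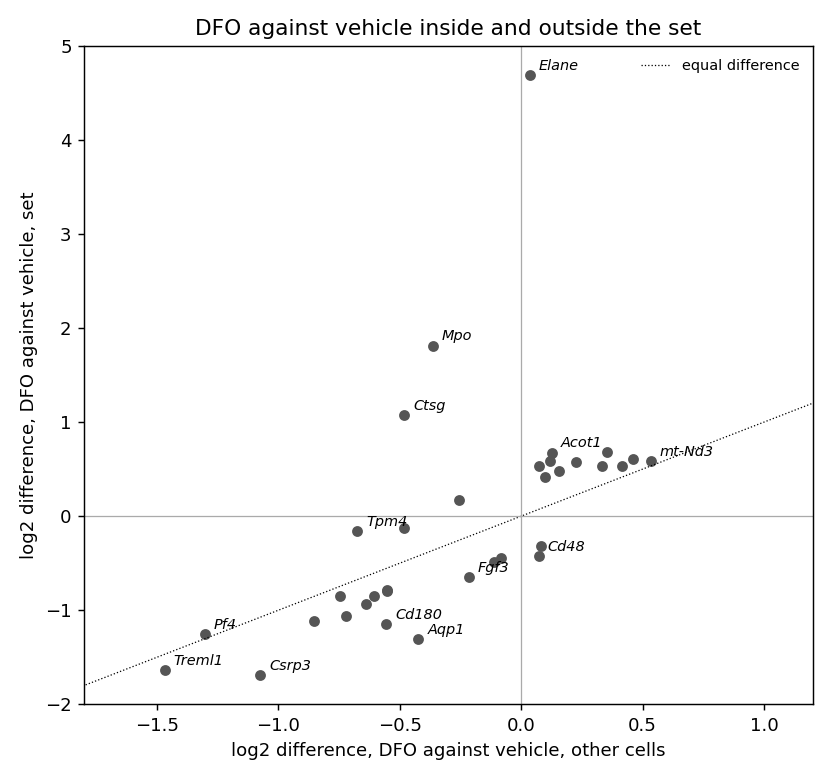
Log2 difference between DFO and vehicle in the other cells (x axis) and in the set (y axis) for genes named by the DFO comparison, each point 1 gene. Pf4 lies near the dotted line of equal difference, while Elane, Mpo and Ctsg lie far above it through 1 DFO cell.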

How the data were processed

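The deposited tables, 1 per library, hold natural log values by gene and cell. On the linear scale every value was a whole number of molecules (tolerance 0.05), and these molecules were summed. Per the submitters' processing notes, Cell Ranger 3.0.2 and build mm10 were used; the sources used here do not give the cell filter. Sums per library and class were scaled to CPM and compared as log2 with a pseudocount of 1 (Python 3.11.15, numpy 2.4.6, scipy 1.17.1, pandas 2.3.3). With 1 library per group no test was run, and intervals are exact 95% Poisson or Clopper-Pearson, for counting error only. The minimum of 10 CPM applies to the mean over the sums compared; on simulated data, genes lowered to under it left the comparison. The members and the 33 gene lists were chosen with earlier results of these data known. Named are the 12 highest and 12 lowest genes of each comparison, the 5 highest and 5 lowest by the gap between DFO differences at 20 CPM or more, fixed genes and the 2 extremes of lists at each end; a few of these are not reported here. No doublet caller was run. The libraries share 24 barcodes, none with both cells in the set.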

Additional observations from a re-analysis of the deposited data

Results flagged for a closer look

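The DFO difference had opposite signs in the set and in the other cells for 5 named genes, with counting intervals on either side of 0. The difference in the set minus that outside it was 2.17 for Mpo and 1.56 for Ctsg, both resting on 1 DFO cell. It was -0.50 for Cd48, -0.39 for Nagpa and -0.31 for Cdkn1a. With 1 library per group the gaps were not tested, and several genes were named for having one.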

How the results depend on the processing

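With 1 library per group no library could be left out, and no paired analysis was possible because each group has a single library. The cause of the changes below was not tested except where the construction shows it. The DFO to vehicle ratio of the set's share was below 1 throughout; it was 0.605 for the lowest 5%, 0.754 for the lowest 20%, 0.564 on S phase genes of the score alone, 0.742 on its mitosis genes alone, and 0.493 within bins of total molecules, an alternative chosen after seeing the data.

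Genes higher and lower in the set numbered 555 and 723 for the lowest 5%, 155 and 266 for the lowest 20%, 198 and 283 in cells with 4000 or more genes, 175 and 197 on S phase genes alone, 21 and 109 within bins of molecules, 84 and 257 with other cells weighted for molecules, and 75 and 137 against the next decile only. Higher genes numbered 234 with the score from thinned cells, 162 with a pseudocount of 10 CPM, 215 from 20 CPM and 845 with no minimum.

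Genes higher and lower with DFO inside the set numbered 79 and 100 for the lowest 5%, 45 and 80 in female cells, 93 and 114 in male cells, 8 and 30 within bins of molecules, 5 and 23 with a pseudocount of 10 CPM, 38 and 83 from 5 CPM, 4 and 26 from 20 CPM, 186 and 240 with no minimum, 37 and 70 from thinned cells, and 5 and 14 weighted over megakaryocyte bins. Higher genes alone numbered 4 for the lowest 20%, 9 with the thinned score, 6 in cells with 4000 or more genes, 29 on S phase genes alone, 26 with a pseudocount of 0.1 CPM, and 24 weighted over bins of molecules.

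By the smaller of both libraries, genes lower in the set turned higher when only S phase genes made the score, a set that can hold mitotic cells: Prc1 0.28, Nusap1 0.71, Kif11 0.11, Spc25 0.040, Sgo2a 0.16, Plk1 0.39 and Pf4 0.62. Within bins of molecules Pf4 turned to 0.72 and Ccne2 to 0.11. The DFO difference of Mpo and Ctsg in the set turned to -0.87 and -1.43 for the lowest 5%, -0.24 and -0.72 with the thinned score, -0.38 and -1.73 with no minimum on genes, -1.59 and -1.69 on S phase genes, -0.51 and -1.17 on mitosis genes, -0.76 and -1.17 without cells of both sexes, -1.32 and -1.31 in female cells, where Elane turned to -0.26, and -0.47 and -1.19 without the DFO cell with most Elane, also chosen after seeing the data.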
